A study of Mus musculus with 8 samples.

Results

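The genes described here are 32 genes of cholesterol metabolism, read in fibroadipogenic progenitors (FAPs). These are stromal cells that lie between muscle fibres and can turn into fibroblasts or adipocytes. The list comprises 18 enzymes of cholesterol synthesis, 5 genes of SREBP control, 4 genes of cholesterol uptake and intracellular transport, and 5 genes of efflux, liver X receptor (LXR) signalling and storage. The genes were selected on their known function, with the low levels of Sqle and Hmgcs1 in the tumour-bearing group already seen. The comparison of that group with sham is therefore given as a description, and its counts support nothing about the list. The list takes 32 of the 24419 rows of the count table, and 32 of 32 passed the filter on low counts that left 13646 genes for testing.

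RNA was sequenced in 8 libraries of FAPs from male C57BL/6J mice, taken from hindlimb muscle. The age of the mice is not given in the sources used here. The sort kept cells that were positive for SCA-1 and Hoechst and lacked CD31, CD45, α7-integrin and propidium iodide (PI). The sham group (n = 2) had sham surgery and no tumour cells. The KPC Scr group (n = 3) had cells of KPCY, a mouse pancreatic cancer line, placed in the pancreas in 50 µL after lentiviral transduction with a scrambled sequence. The miR-27a-KD group (n = 3) had the same line with a lentiviral vector that inhibits miR-27a-3p. Both transduced lines had been selected with 2 µg/mL puromycin for 7 days, and each tumour group rests on 1 such line. The inhibitor was carried by the implanted tumour cells and not by the sorted FAPs. No group analysed here received KPCY cells without a lentiviral vector, so what the vector itself does cannot be told apart from the tumour. The study concerns FAPs in pancreatic cancer cachexia.

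Cells make cholesterol from acetyl-CoA, first through mevalonate to the isoprenoid farnesyl diphosphate, then through squalene and lanosterol to the sterol itself. The enzymes of this route are switched on together by the SREBP transcription factors. Their precursors sit in the endoplasmic reticulum with the escort protein encoded by Scap. When sterols are plentiful, the INSIG proteins hold this complex back, and when sterols run low it moves to the Golgi, where the active factor is released. LXRs are nuclear receptors that respond to oxysterols, which accumulate with cholesterol, and they switch on efflux pumps such as Abca1 and Abcg1.

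The sequences in front of 5 genes are shown because SREBPs act at promoters together with the factor NF-Y, whose box is CCAAT. Hmgcs1, Mvd and Srebf2 were called lower in KPC Scr than in sham, Nsdhl is a second synthesis gene with a sterol element form, and Abca1 is the efflux pump for contrast. Each line holds the 250 bases before the gene start from RefSeq promoter windows on GRCm38.p6, 5′ to 3′ on the strand of the gene. The windows lie at chr13:119690101-119690350 (+) for Hmgcs1, chr8:122443423-122443672 (-) for Mvd, chr15:82147019-82147268 (+) for Srebf2, chrX:72918271-72918520 (+) for Nsdhl and chr4:53159896-53160145 (-) for Abca1. Capitals mark CCAAT on either strand (ATTGG when read on the other) and TCACNCNAC, a loose form of the sterol regulatory element.
Hmgcs1: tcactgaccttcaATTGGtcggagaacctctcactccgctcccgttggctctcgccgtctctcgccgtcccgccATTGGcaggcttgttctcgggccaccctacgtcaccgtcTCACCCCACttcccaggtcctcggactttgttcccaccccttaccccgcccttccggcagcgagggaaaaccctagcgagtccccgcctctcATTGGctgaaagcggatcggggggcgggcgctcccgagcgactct
Mvd: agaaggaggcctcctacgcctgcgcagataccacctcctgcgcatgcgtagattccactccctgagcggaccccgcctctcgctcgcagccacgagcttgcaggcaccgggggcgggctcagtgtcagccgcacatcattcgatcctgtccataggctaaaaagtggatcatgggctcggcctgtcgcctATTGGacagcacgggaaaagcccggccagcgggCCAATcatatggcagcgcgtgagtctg
Srebf2: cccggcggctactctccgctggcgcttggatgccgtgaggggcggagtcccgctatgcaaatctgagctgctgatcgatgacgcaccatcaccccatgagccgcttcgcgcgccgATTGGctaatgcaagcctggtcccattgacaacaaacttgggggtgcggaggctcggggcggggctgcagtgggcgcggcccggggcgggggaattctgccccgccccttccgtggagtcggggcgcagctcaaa
Nsdhl: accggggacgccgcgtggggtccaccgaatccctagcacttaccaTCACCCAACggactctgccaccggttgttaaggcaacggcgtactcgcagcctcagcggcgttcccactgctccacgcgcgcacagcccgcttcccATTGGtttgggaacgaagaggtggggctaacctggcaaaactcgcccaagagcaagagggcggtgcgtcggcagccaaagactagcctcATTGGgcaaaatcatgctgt
Abca1: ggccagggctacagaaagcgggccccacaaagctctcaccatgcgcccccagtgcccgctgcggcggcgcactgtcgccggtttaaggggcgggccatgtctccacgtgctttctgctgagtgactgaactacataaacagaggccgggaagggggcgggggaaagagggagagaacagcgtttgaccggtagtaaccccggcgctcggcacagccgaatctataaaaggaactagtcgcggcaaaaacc

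In the table of windows, which run from 250 bases before to 50 bases after the start, 26 of the 32 genes matched, with 35 windows. Fdps, Fdft1, Sqle, Stard4, Npc1 and Abcg1 did not match. CCAAT was found on either strand in 14 of the 18 windows of synthesis enzymes (77.8%), against 37.4% of all 32851 windows and 37.1% of the windows of genes tested. Counted by gene, 14 of the 15 matched synthesis genes held it in some window, against 4376 of the 10304 matched genes tested, and Acat2 did not. Among the 5 windows of the efflux, LXR and storage genes CCAAT was found in 1, that of Soat1. It was also found in 5 of 10 windows of SREBP control, and in 2 of 2 of uptake and transport, those of Mylip and Npc2. The strict sterol element form TCACNCCAC was found for Hmgcs1 alone, against 1.24% of all windows. The looser TCACNCNAC, which contains the strict form, was found for Hmgcs1 and Nsdhl, against 2.70% of all windows. In Hmgcs1 the sterol element form begins 137 bases before the start and lies between NF-Y boxes that begin 176 and 45 bases before it. GGGCGG, the box bound by Sp1, was found in 27 of the 35 windows, against 35.7% of all windows and 61.5% of those of genes tested. CACGTG, an E-box, was found in 7 of the 35 windows, against 7.15% of all windows and 9.60% of those of genes tested. The perfect DR4 repeat bound by LXR was found in none of the 35 windows. It was found in 0 of the 13180 windows of genes tested and in 0.0152% of all windows. Imperfect repeats were not searched, so this does not show that Abca1 or any other gene lacks an LXR element. These matches, all searched on both strands, describe letters in the window and not binding.

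**Figure D1:**
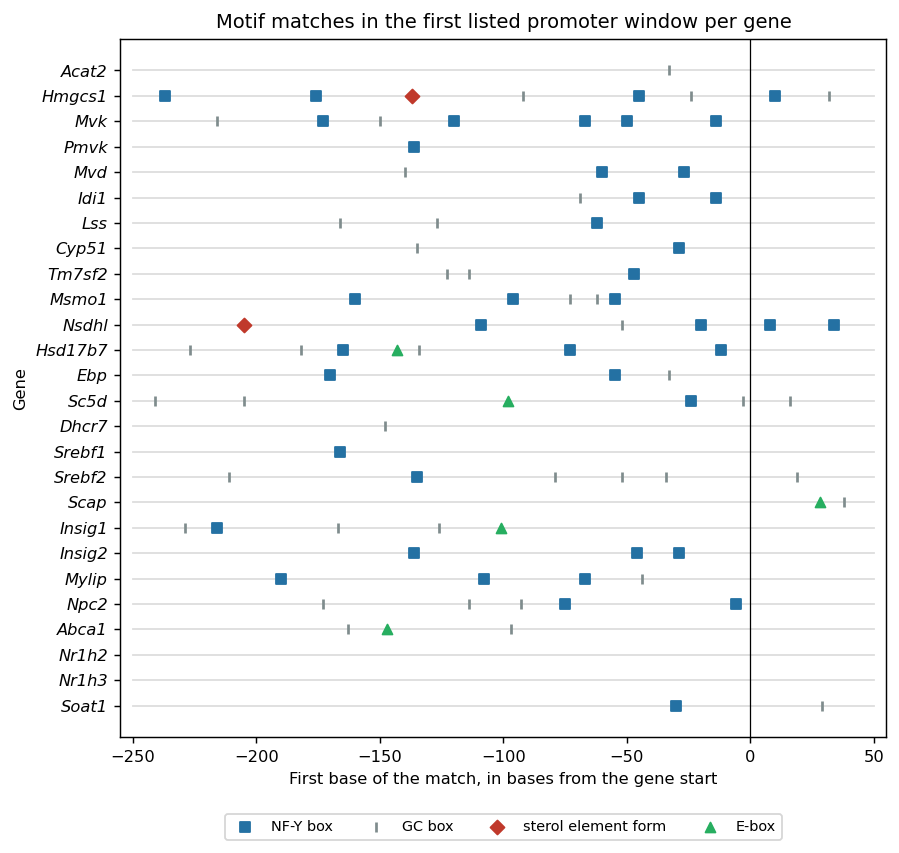
Position of each motif match (x axis, bases from the gene start; the vertical line is the start) in the first listed promoter window of the 26 matched genes (y axis). Squares are NF-Y boxes, ticks GC boxes, diamonds sterol element forms and triangles E-boxes. NF-Y boxes are drawn for each synthesis gene shown except Acat2 and Dhcr7, and diamonds for Hmgcs1 and Nsdhl.

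The microRNA that the vector targets in the tumour cells is miR-27a-3p, encoded at chr8:84208727-84208747 (+, GRCm38.p6). Its mature RefSeq sequence is shown because it is the agent that separates the tumour groups, and the capitals mark the seed, bases 2 to 8.
miR-27a-3p: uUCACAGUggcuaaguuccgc

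Total counts per library ran from 15647436 to 28340450. Along the first principal component, which held 61.1% of the variance of log2 CPM (read counts scaled to a common library total), KPC Scr 1 and 3 lay at 115.5 and 92.0, KPC Scr 2 at -12.3, and the 5 sham and miR-27a-KD libraries between -47.7 and -32.3. KPC Scr 2 thus stands apart from the libraries of its own group, and results are given with and without it where it moves them. The FAP receptor gene Pdgfra stood between 1256 and 1588 CPM in the 8 libraries. Ly6a, which encodes the sorted SCA-1, stood at 951 and 933 CPM in sham, at 451, 1136 and 436 CPM in KPC Scr 1, 2 and 3, and at 1110, 1175 and 1033 CPM in miR-27a-KD, and its part in the results was not tested. Of the 9 FAP markers listed, 6 had a lower fitted mean in KPC Scr than in sham, and 0 were called. Cd34, a stem and progenitor surface marker, stood at 2250 and 2156 CPM in sham, at 213, 1179 and 241 CPM in KPC Scr 1, 2 and 3, and at 1805 to 1925 CPM in miR-27a-KD. The collagen gene Col3a1 stood at 22480 and 13180 CPM in sham and at 990, 10120 and 974 CPM in KPC Scr, and Col1a1, Lum and Dpt were likewise lowest in KPC Scr 1 and 3. The part of these markers in the results was not tested either. Fewer cells of a type and less RNA per cell cannot be told apart in such bulk libraries. The labels call the libraries biological replicates. Tests are from edgeR over all 8 libraries, so each p-value draws on a spread pooled over the 3 groups, and a gene is called at an adjusted p of at most 0.05 over all 13646 genes.

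Levels are given as CPM scaled by TMM, and between genes only as CPM per kilobase of exon. On that scale the highest mean levels in sham were those of Insig1 (44.3 CPM per kilobase), Srebf2 (43.6), Npc2 (39.9), Srebf1 (37.7) and Hmgcs1 (28). The regulators and the lysosomal carrier thus headed the order, and Hmgcs1 was the highest synthesis enzyme. Abcg1 was the lowest of the 32, at 0.461 CPM per kilobase. In KPC Scr, Hmgcs1 stood at 4.76 CPM per kilobase and Npc2, at 55.4, was the highest of the 32. Idi1 had the fewest reads, with 5 in KPC Scr 3, so its values carry the largest counting error.

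In FAPs of KPC Scr mice the synthesis route was low along nearly its whole length. Of the 18 synthesis enzymes, 17 had a lower fitted mean in KPC Scr than in sham, and 16 were lower in each KPC Scr library than in both sham libraries. The median log2 difference was -1.98 over the 18 enzymes, -1.26 over the 32 genes and 0.0018 over all genes tested. With edgeR, 4 of the 32 genes were called lower (0.476% of all genes tested) and 0 higher (1.1% of all). The called genes were Sqle, Hmgcs1, Mvd and Srebf2. Without overlap of the groups, 19 of the 32 were lower (20.8% of all genes) and 5 higher (20.2% of all), and 24 of the 32 had an unadjusted p under 0.05 (29.2% of all).

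These calls rest on the whole set of libraries. The count of genes called was 0 when sham 1, sham 2, KPC Scr 1, KPC Scr 3, miR-27a-KD 1 or miR-27a-KD 3 was left out, 1 (Sqle) without miR-27a-KD 2, and 25 (7 higher and 18 lower) without KPC Scr 2. Over all genes tested 215 were called, against 6908 of 13547 without KPC Scr 2 and between 0 and 67 without any other single library.

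**Figure D2:**
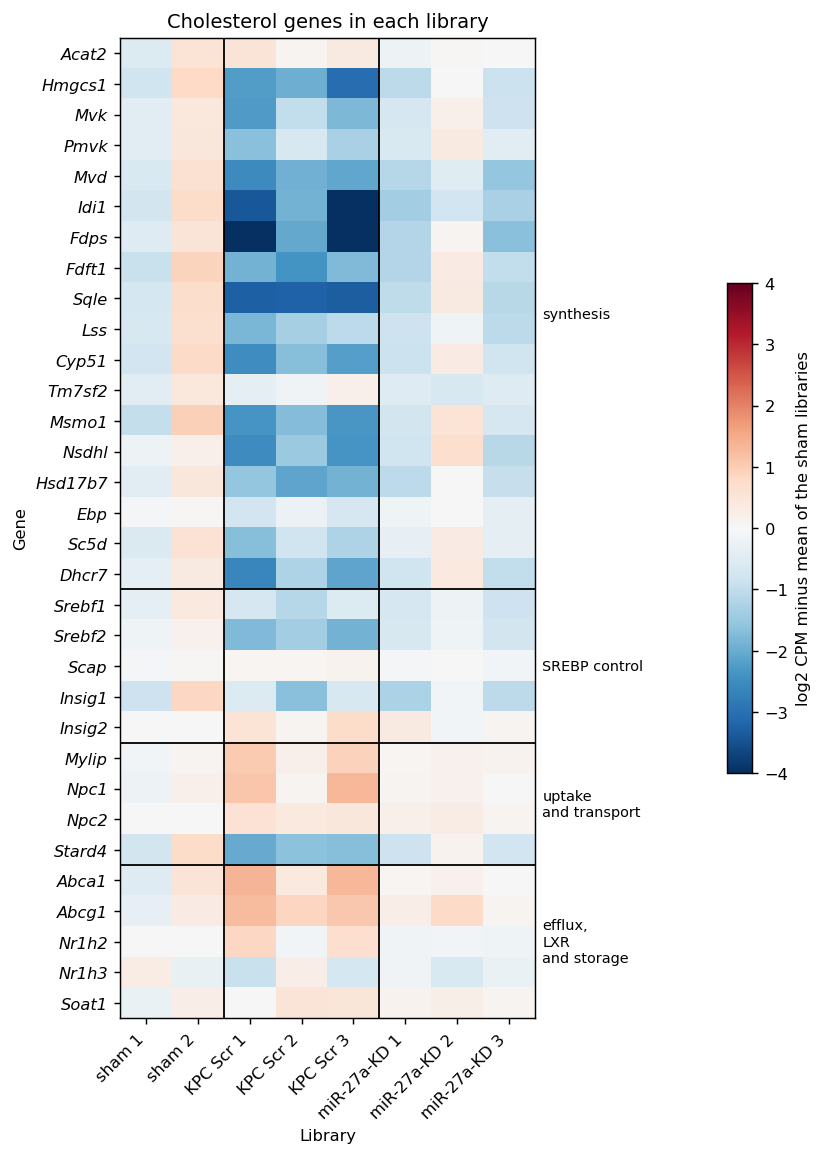
Log2 CPM of each of the 32 genes (rows, grouped by role) in each of the 8 libraries (columns), minus the mean of the sham libraries; blue is lower and red higher. In the synthesis block the 3 KPC Scr columns are blue for 16 of 18 enzymes, while in the efflux block KPC Scr 1 and 3 are redder than KPC Scr 2 for Abca1 and Nr1h2.

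The mevalonate arm, 7 enzymes from acetyl-CoA to farnesyl diphosphate, had a median log2 difference of -2.29 between KPC Scr and sham. Hmgcs1 (chr13:119690379-119708260), the synthase that forms HMG-CoA at the head of the route, stood at 64.1 and 193 CPM in sham 1 and 2. It stood at 23.4, 28.8 and 13.4 CPM in KPC Scr 1, 2 and 3. The miR-27a-KD libraries held 53.7, 112 and 62.0 CPM. Each KPC Scr library was below each other library, while sham and miR-27a-KD overlapped. Hmgcs1 fell by 2.55 ± 0.50 (SE) on the log2 scale in KPC Scr against sham, 5.85-fold (edgeR adjusted p = 0.0452).

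Mvd (chr8:122433601-122443422) encodes the decarboxylase that makes isopentenyl diphosphate. Its levels were 9.80 and 22.4 CPM in sham, 2.55, 3.89 and 3.53 CPM in KPC Scr, and 6.72, 10.7 and 5.07 CPM in miR-27a-KD. The KPC Scr values again lay under all others, and miR-27a-KD straddled the lower sham value. Mvd fell by 2.29 ± 0.44 on the log2 scale in KPC Scr against sham, 4.90-fold (edgeR adjusted p = 0.0444).

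Of the other mevalonate enzymes, Fdps, which makes farnesyl diphosphate, had a log2 difference of -3.15 ± 0.70 and was not called (edgeR adjusted p = 0.0578). Idi1, the isomerase of isopentenyl diphosphate, stood at -2.95 ± 0.62, the mevalonate kinase Mvk at -1.64 ± 0.44 and the phosphomevalonate kinase Pmvk at -1.21 ± 0.43. None of these passed the threshold, although in each the KPC Scr libraries lay under both sham libraries. Fdps held 38.8 and 80.3 CPM in sham against 3.29, 13.4 and 3.15 CPM in KPC Scr, and Idi1 held 3.23 and 8.93 CPM against 0.509, 1.44 and 0.315 CPM. Acat2, the thiolase that joins acetyl-CoA units, differed from the rest of the arm with a log2 difference of 0.22 ± 0.33. Its 3 KPC Scr libraries held 12.1, 9.0 and 10.7 CPM, within the 5.76 to 12.3 CPM of sham.

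The sterol arm holds 11 enzymes, from the making of squalene to cholesterol, with a median log2 difference of -1.92. Sqle (chr15:59315077-59331192), the squalene epoxidase of this arm, stood at 32.3 and 84.2 CPM in sham. In KPC Scr it stood at 5.45, 5.54 and 5.29 CPM, the tightest group of any in this gene. The miR-27a-KD libraries held 26.0, 67.2 and 24.4 CPM. KPC Scr was separate from both other groups, which overlapped. Sqle fell by 3.42 ± 0.52 on the log2 scale in KPC Scr against sham, 10.7-fold (edgeR adjusted p = 0.0252), the largest difference among the 32 genes.

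Hsd17b7, the reductase that removes a ketone during demethylation of the sterol ring, stood at 18.8 and 35.6 CPM in sham, at 8.86, 6.04 and 6.99 CPM in KPC Scr and at 12.6, 25.8 and 13.7 CPM in miR-27a-KD. KPC Scr lay lowest without overlap. The log2 difference between KPC Scr and sham was -1.90 ± 0.39, just outside the threshold (edgeR adjusted p = 0.0516), while Hmgcs1 lay just inside it.

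The remaining sterol enzymes ran in 1 direction. The methylsterol oxidase Msmo1 had a log2 difference of -2.40, the lanosterol demethylase Cyp51 of -2.28, the squalene synthase Fdft1 of -2.26 and the sterol dehydrogenase Nsdhl of -2.04. Dhcr7, which can act at the last step, stood at -1.92, the lanosterol synthase Lss at -1.53 and the desaturase Sc5d at -1.32. The smallest differences were those of the isomerase Ebp (-0.54) and the sterol reductase Tm7sf2 (-0.19), and none of these 9 passed the threshold. The highest KPC Scr library of Cyp51 held 14.8 CPM and the lowest sham library 28.3 CPM, and for Msmo1 these were 10.0 and 17.5 CPM, whereas for Ebp they were 35.5 and 40.4 CPM. Tm7sf2 and Acat2 were the only synthesis enzymes whose KPC Scr and sham libraries overlapped.

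Some exons of these genes also lie in another gene, and the strand used in counting is not given in the sources used here. Fdft1 shares 774 exonic bases with Ctsb on the opposite strand, Cyp51 shares 166 with Akap9 and Srebf1 shares 109 with Rai1. Tm7sf2 shares 532 with Vps51 on the same strand. The values of these 4 genes are uncertain to that extent.

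KPC Scr 2 carried the low synthesis levels along with the other libraries of its group. In each of KPC Scr 1, 2 and 3, 16 of 18 enzymes lay below both sham libraries, and 16, 15 and 16 lay below all sham and miR-27a-KD libraries. The mean log2 CPM of the 18 enzymes, minus the sham mean, was -2.03, -1.42 and -1.90 in the 3 libraries, so KPC Scr 2 was the least low. The difference of group means was -1.78 with it and -1.97 without it.

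Synthesis enzymes also varied together within groups. Sham 2 was above sham 1 for 18 of 18 enzymes, by a median of 2.18-fold (1.06 to 3.69). Likewise miR-27a-KD 2 was the highest of its group for 17 of 18, and KPC Scr 2 the highest of its group for 13 of 18. Relative to the sham mean, the mean log2 CPM of the 18 enzymes was -0.55 and 0.55 in sham 1 and 2, and -0.80, 0.09 and -0.85 in miR-27a-KD 1, 2 and 3. The spread between libraries of 1 group is therefore large for these genes, and the sham group has only 2 libraries. Against sham 1 alone the group mean difference of KPC Scr was -1.24, and against sham 2 alone it was -2.34.

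**Figure D3:**
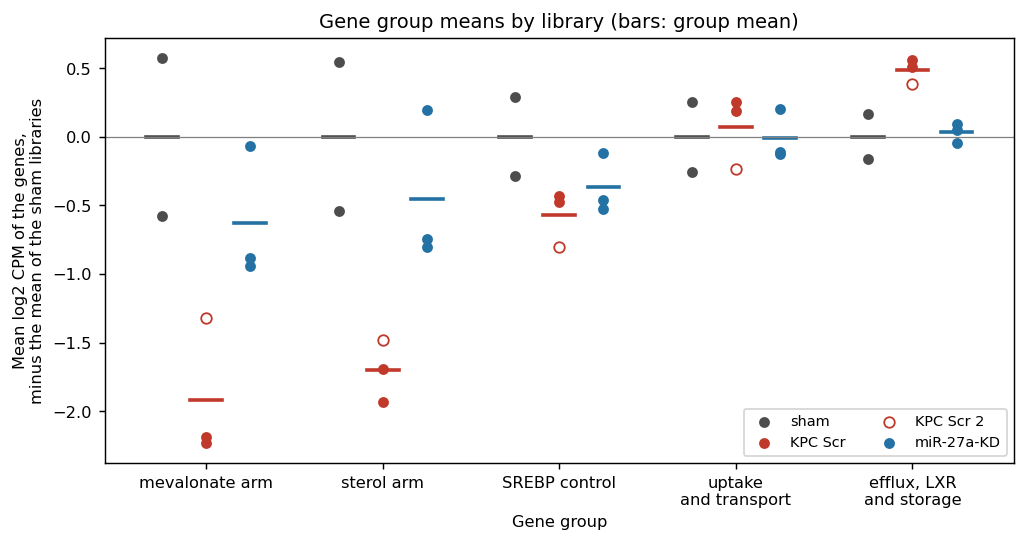
Mean log2 CPM over the genes of each group (y axis, minus the mean of the sham libraries) in each library, by gene group (x axis). Points are libraries, bars are group means, and the open circle is KPC Scr 2. Both synthesis arms are lowest in the 3 KPC Scr libraries, while efflux, LXR and storage genes are highest there.

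Among the 5 genes of SREBP control, only Srebf2 was called in KPC Scr against sham. Srebf1 and Insig1 had the same sign, Scap and Insig2 the other, and the contrast of Srebf2 with them was not tested. Srebf2 (chr15:82147181-82205379) encodes the factor that drives the synthesis genes, and is itself one of their class of targets. It stood at 273 and 353 CPM in sham, at 91.5, 118 and 84.1 CPM in KPC Scr, and at 197, 278 and 186 CPM in miR-27a-KD. The KPC Scr libraries were lowest without overlap. Srebf2 fell by 1.68 ± 0.24 on the log2 scale in KPC Scr against sham, 3.20-fold (edgeR adjusted p = 0.0206).

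Srebf1, the related factor that favours fatty acid genes and is also an LXR target, stood at 158 and 267 CPM in sham and at 129, 93.8 and 142 CPM in KPC Scr. In miR-27a-KD it stood at 129, 179 and 115 CPM. KPC Scr lay below sham, and miR-27a-KD overlapped both. The log2 difference of KPC Scr from sham was -0.81 ± 0.29 (edgeR adjusted p = 0.120), smaller in size than that of Srebf2, a contrast that was not tested. Scap, the escort, was nearly level, with 70.5 and 74.6 CPM in sham and 76.2 to 80.7 CPM in KPC Scr.

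The INSIG genes, whose proteins retain SREBPs, had opposite signs. Insig1, itself an SREBP target, stood at 66.0 and 208 CPM in sham, at 80.3, 36.8 and 75.2 CPM in KPC Scr and at 48.3, 109 and 56.4 CPM in miR-27a-KD. Its groups overlapped, and KPC Scr 2 was the lowest library of the 8, in contrast to Sqle, which was equally low in the 3 KPC Scr libraries. Insig1 had a log2 difference of -1.10 ± 0.52 between KPC Scr and sham. Insig2 stood at 42.4 and 43.2 CPM in sham, at 61.9, 46.2 and 71.5 CPM in KPC Scr and at 55.5, 40.0 and 46.5 CPM in miR-27a-KD. All KPC Scr libraries were above sham, KPC Scr 2 by the least, and the log2 difference was 0.48 ± 0.23. Neither INSIG gene was called. Without KPC Scr 2 the log2 difference of Insig2 was 0.64 and was called, and that of Insig1 was -0.81 and was not. That fit called 6908 of 13547 genes.

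Genes of uptake and intracellular transport split into Stard4 and the other 3. Stard4, a carrier of cholesterol between membranes and a known SREBP target, stood at 12.0 and 33.1 CPM in sham, at 4.94, 6.34 and 6.17 CPM in KPC Scr and at 11.2, 21.9 and 11.8 CPM in miR-27a-KD. It was lowest in the 3 KPC Scr libraries without overlap, like the enzymes, and its log2 difference of -1.97 ± 0.45 was not called (edgeR adjusted p = 0.0602).

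Mylip, the ubiquitin ligase that removes lipoprotein receptors and is an LXR target, stood at 61.0 and 70.3 CPM in sham, at 137, 76.0 and 124 CPM in KPC Scr and at 69.8, 74.1 and 71.9 CPM in miR-27a-KD. KPC Scr 1 and 3 stood far above the other 6 libraries, and KPC Scr 2 just above them. The log2 difference between KPC Scr and sham was 0.77 ± 0.25, not called, and 1.00 without KPC Scr 2, called. The fit without KPC Scr 2 called 6908 of 13547 genes.

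Npc1, the membrane protein that passes cholesterol out of lysosomes, stood at 55.9 and 75.4 CPM in sham, at 140, 69.9 and 162 CPM in KPC Scr and at 69.8, 73.8 and 65.5 CPM in miR-27a-KD. Here KPC Scr 2 lay inside the sham range, so the groups overlapped. The log2 difference was 0.91 ± 0.32, not called, and 1.20 without KPC Scr 2, called. Its soluble partner Npc2 stood at 221 and 213 CPM in sham, at 324, 282 and 298 CPM in KPC Scr and at 250, 268 and 232 CPM in miR-27a-KD. Unlike Npc1, it was higher in each KPC Scr library than in any other. Its log2 difference was 0.47 ± 0.16, not called, and 0.53 without KPC Scr 2, called. The fit without KPC Scr 2 called 6908 of 13547 genes.

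On the efflux side, Abca1, the pump that loads cholesterol onto apolipoproteins, stood at 118 and 239 CPM in sham, at 430, 222 and 418 CPM in KPC Scr and at 179, 191 and 172 CPM in miR-27a-KD. KPC Scr 1 and 3 were the 2 highest libraries, and KPC Scr 2 lay below sham 2. The log2 difference between KPC Scr and sham was 1.00 ± 0.35, not called, and 1.25 without KPC Scr 2, called. Abcg1, a second efflux pump, stood at 2.59 and 4.13 CPM in sham, at 7.88, 5.96 and 6.86 CPM in KPC Scr and at 3.95, 5.58 and 3.50 CPM in miR-27a-KD. All 3 KPC Scr libraries were the highest of the 8, at a low level. Its log2 difference was 1.03 ± 0.37, not called, and 1.14 without KPC Scr 2, called. The fit without KPC Scr 2 called 6908 of 13547 genes.

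The LXR genes had opposite signs. Nr1h2, the more widely expressed LXR, stood at 91.3 and 94.6 CPM in sham, at 166, 86.8 and 147 CPM in KPC Scr and at 85.0, 87.1 and 81.7 CPM in miR-27a-KD. KPC Scr 1 and 3 were high while KPC Scr 2 was below both sham libraries. The log2 difference of 0.52 ± 0.25 was not called, and that of 0.76 without KPC Scr 2 was called. The fit without KPC Scr 2 called 6908 of 13547 genes. Nr1h3, the other LXR, had a log2 difference of -0.37 ± 0.36, with 18.9, 42.4 and 21.4 CPM in KPC Scr against 43.3 and 28.5 CPM in sham. Soat1, which esterifies cholesterol for storage, stood at 14.3 and 20.5 CPM in sham, at 17.2, 24.6 and 24.1 CPM in KPC Scr and at 19.0, 20.0 and 18.7 CPM in miR-27a-KD. Its groups overlapped, with a log2 difference of 0.33 ± 0.24 that was not called with or without KPC Scr 2.

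**Figure D4:**
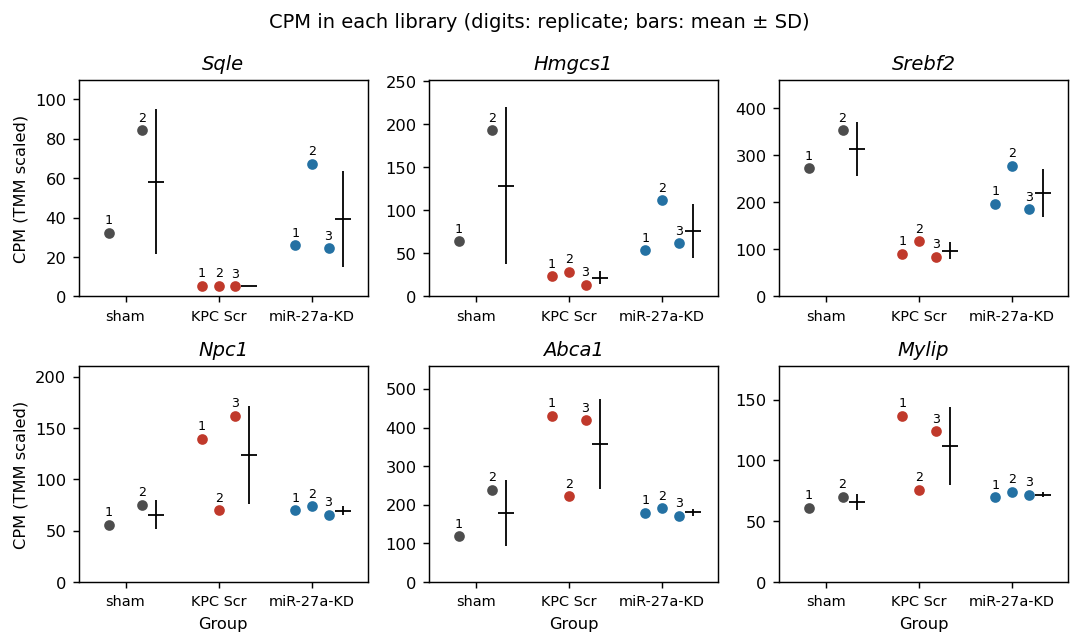
CPM (y axis, TMM scaled) of Sqle, Hmgcs1, Srebf2, Npc1, Abca1 and Mylip in each library by group (x axis); digits are replicate numbers and crosses show the mean ± SD. KPC Scr 2 lies with KPC Scr 1 and 3 for Sqle (5.29 to 5.54 CPM) but apart from them for Npc1 (69.9 against 140 and 162 CPM) and Abca1 (222 against 430 and 418 CPM).

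By group mean, KPC Scr 2 stood nearer to sham than KPC Scr 1 and 3 for the synthesis and the efflux genes alike. For SREBP control it lay further below sham, and for uptake and transport on the other side of the sham mean. Relative to the sham mean, the mean log2 CPM of the 5 efflux, LXR and storage genes was 0.51, 0.39 and 0.56 in KPC Scr 1, 2 and 3. Of these 5 genes, 3, 2 and 4 lay above both sham libraries in the respective library. For uptake and transport the means were 0.19, -0.23 and 0.25, with 3, 2 and 3 of 4 genes above both sham libraries, and for SREBP control they were -0.47, -0.80 and -0.43.

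The comparison of miR-27a-KD with KPC Scr asks how FAPs differ when the tumour cells carry the inhibitor. It shares the KPC Scr libraries with the comparison above, so a low KPC Scr value enters both with opposite sign, and the values are set side by side only. Synthesis enzymes stood higher in miR-27a-KD: 16 of 18 had a higher fitted mean, 15 were higher in each miR-27a-KD library than in each KPC Scr library, and Acat2 and Tm7sf2 were lower without overlap. The median log2 difference was 1.39 over the enzymes, 0.85 over the 32 genes and 0.014 over all genes tested.

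None of the 32 genes was called by edgeR in this comparison, where 0.0513% of all genes tested were called in either direction. An unadjusted p under 0.05 was reached by 20 of the 32 (32.4% of all genes), and DESeq2 called 16 (14 higher and 2 lower) among 2187 genes in all. Without overlap, 17 of the 32 were higher (17.5% of all genes) and 7 lower (16.7% of all). Without KPC Scr 2, edgeR called 22 of the 32 (15 higher and 7 lower) among 7313 of 13547 genes, and without any other single library it called 0.

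Sqle had the largest log2 difference, 2.85 ± 0.49 or 7.19-fold (edgeR adjusted p = 0.0610), and Srebf2 stood at 1.17 ± 0.22 or 2.25-fold with the same adjusted p. Among the mevalonate enzymes, Fdps stood at 2.34 ± 0.65, Hmgcs1 at 1.79 ± 0.46 and Mvd at 1.17 ± 0.42. Hsd17b7 stood at 1.24 ± 0.36 and Stard4 was 2.57-fold higher. For each of these 7 genes the lowest miR-27a-KD library was above the highest KPC Scr library. Fdps, for example, ran from 17.4 to 60.3 CPM in miR-27a-KD and from 3.15 to 13.4 CPM in KPC Scr. The exceptions to this direction among the enzymes were Tm7sf2 and Acat2. Tm7sf2 ran from 3.74 to 4.11 CPM in miR-27a-KD against 4.43 to 6.67 CPM in KPC Scr, and Acat2 from 7.34 to 8.6 CPM against 9.0 to 12.1 CPM.

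Of the 9 transport and efflux genes, 7 had a lower fitted mean in miR-27a-KD than in KPC Scr, while Stard4, given above, and Nr1h3 did not. Abca1 had a log2 difference of -0.98 ± 0.31 (edgeR adjusted p = 0.0883), Npc1 of -0.83 ± 0.28, Abcg1 of -0.68 ± 0.31, Nr1h2 of -0.66 ± 0.23, Mylip of -0.64 ± 0.22 and Npc2 of -0.27 ± 0.14, none called. For Abca1, Abcg1, Mylip and Npc2 each miR-27a-KD library lay below each KPC Scr library, whereas for Npc1 and Nr1h2 KPC Scr 2 lay within the range of miR-27a-KD. Without KPC Scr 2 these 6 were called, among 7313 of 13547 genes. Their log2 differences were then -1.24 for Abca1, -1.12 for Npc1, -0.80 for Abcg1, -0.90 for Nr1h2, -0.86 for Mylip and -0.32 for Npc2. Smaller differences were those of Insig2 (-0.34 ± 0.20), Soat1 (-0.19 ± 0.21), Scap (-0.16 ± 0.13), Insig1 (0.15 ± 0.47), Srebf1 (0.21 ± 0.26) and Nr1h3 (0.01 ± 0.32).

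**Figure D5:**
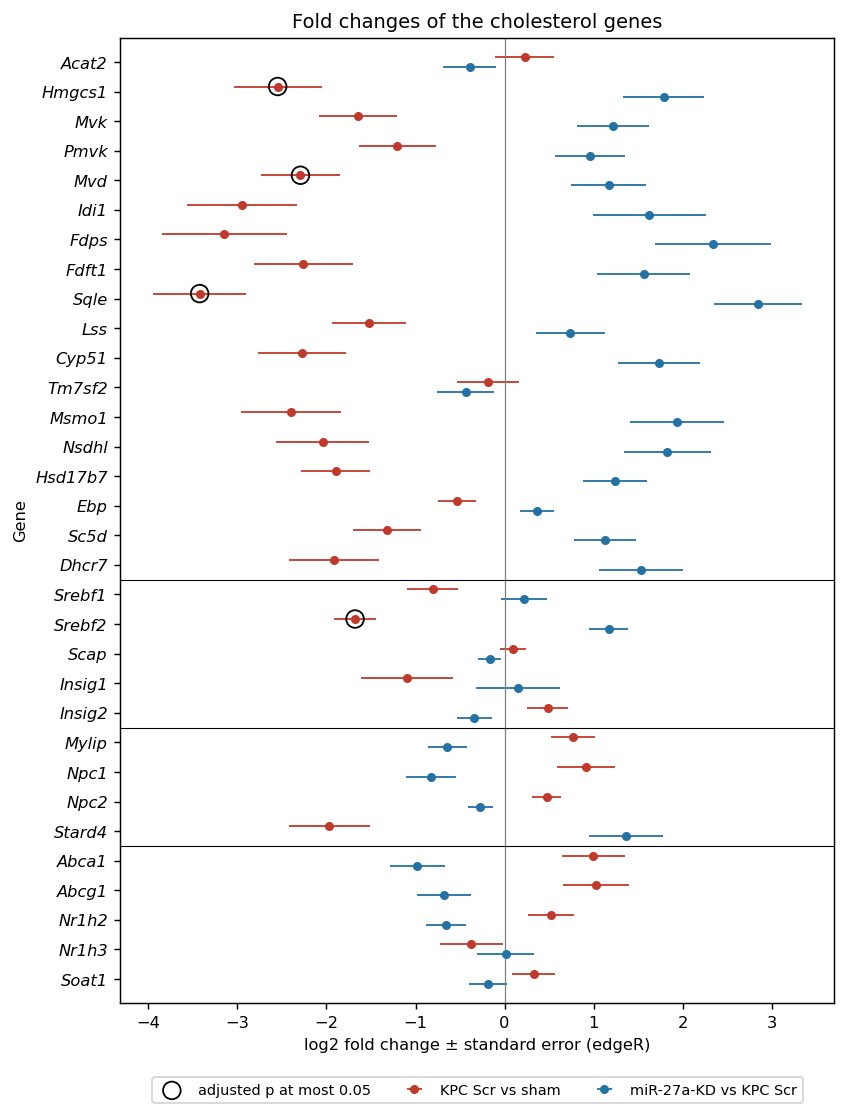
Log2 fold change (x axis, points with standard error bars from edgeR) of each of the 32 genes (y axis, lines divide the 4 roles) in KPC Scr against sham (red) and in miR-27a-KD against KPC Scr (blue). Circles mark the genes called, which are Hmgcs1, Mvd, Sqle and Srebf2 in the first comparison. Both comparisons share the KPC Scr libraries, so points on opposite sides of 0 are not independent.

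The comparison of miR-27a-KD with sham uses no KPC Scr library in its difference, though the spread is pooled over all groups and the sham libraries are shared with the first comparison. No gene of the 32 was called by edgeR (0.00733% of all genes tested were), and each adjusted p was 1. An unadjusted p under 0.05 was reached by 2 of the 32, Mvd and Idi1 (2.37% of all genes), and DESeq2 called 0 of the 32. All 18 synthesis enzymes had a lower fitted mean in miR-27a-KD than in sham, with a median of -0.56 against -0.001 over all genes. This direction depended on sham 2: the mean log2 CPM of the 18 enzymes differed by -0.52 with both sham libraries, by 0.03 against sham 1 alone and by -1.08 against sham 2 alone.

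Without overlap, 3 of the 32 were lower in miR-27a-KD than in sham (13.5% of all genes), namely Idi1, Tm7sf2 and Nr1h2, and 1, Npc2, was higher (13.8% of all). Srebf2 had a log2 difference of -0.51 ± 0.24, Hmgcs1 of -0.76 ± 0.48, Mvd of -1.12 ± 0.42 and Sqle of -0.58 ± 0.48. Abca1 (0.02 ± 0.34), Npc1 (0.09 ± 0.32) and Mylip (0.13 ± 0.24) had differences smaller than their standard errors. A p that misses the threshold does not show that the groups are alike.

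Other genes of the pathway came from a list of 62, and 62 of 62 were tested. Apoe, which encodes the apolipoprotein that takes up exported cholesterol and is a known LXR target, was the only one called in any comparison. It stood at 70.5 and 121 CPM in sham, at 649, 425 and 466 CPM in KPC Scr and at 179, 268 and 224 CPM in miR-27a-KD. The 3 groups did not overlap, with miR-27a-KD in between. Apoe was higher in KPC Scr than in sham by 2.43 ± 0.32 on the log2 scale (edgeR adjusted p = 0.0183), by 1.23 ± 0.30 in miR-27a-KD against sham (edgeR adjusted p = 1), and differed by -1.20 ± 0.26 between miR-27a-KD and KPC Scr (edgeR adjusted p = 0.0689). Unlike Abca1, it was high in KPC Scr 2 as well.

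Of the 62 genes, 1 was called higher and 0 lower in KPC Scr against sham (1.1% and 0.476% of all genes tested), and their median log2 difference was -0.02. In that comparison 22 of 62 had an unadjusted p under 0.05 (29.2% of all genes), as did 20 in miR-27a-KD against KPC Scr (32.4% of all) and 1 in miR-27a-KD against sham (2.37% of all), shares near those of all genes. None was called in the last 2 comparisons. The 10 fatty acid enzymes linked to the SREBP encoded by Srebf1 had a median of -0.95 in KPC Scr against sham, with 9 of 10 negative and 0 called. The other groups of the list had medians of -0.03 (isoprenoid branch, 7 genes), -0.02 (SREBP processing and sterol-regulated degradation, 11), 0.18 (lipoprotein receptors and lysosomal release, 9), -0.02 (sterol transfer, 11), 0.22 (LXR partners and targets, 9) and 1.77 (oxysterols and esters, 5). The last is the value of Soat2 (1.77 ± 0.78), at 1.5 and 2.3 CPM in sham and 9.2, 1.8 and 8.6 CPM in KPC Scr. Of the same group, Ch25h peaked in KPC Scr 1 alone (8.3 CPM) and Cyp7b1 in KPC Scr 2 alone (9.1 CPM). Soat2, Ch25h and Cyp7b1 had few reads. Cyp27a1 stood higher, at 96.5 and 123 CPM in sham and 188, 121 and 205 CPM in KPC Scr. Its log2 difference was 0.64 ± 0.24, and that of Nceh1 was 0.64 ± 0.31. Of the 5 genes, 0 were called.

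The 9 FAP markers summed to between 76500 and 105900 CPM in the 8 libraries, a sum made up mostly of Gsn and Dcn. Cell types that the sort did not select against include pericytes and tenocytes. The 4 pericyte markers summed to 35.9 to 58.0 CPM in sham, 75.2 to 172 CPM in KPC Scr and 86.1 to 110.5 CPM in miR-27a-KD, so both tumour groups lay above sham, and 4 of 4 had a higher fitted mean in KPC Scr than in sham. The 5 tenocyte markers summed to 112 to 503, 51.7 to 232 and 259 to 659 CPM in the 3 groups, with 1 of 5 higher in KPC Scr than in sham. Endothelial cells and macrophages should have been removed by the gates on CD31 and CD45. The 5 endothelial markers summed to 483 to 490, 339 to 386 and 456 to 536 CPM. Most of that sum was Tek, at 391.5 and 411.9 CPM in sham and 200.8, 290.5 and 216.1 CPM in KPC Scr. By single marker, 4 of 5 had a higher fitted mean in KPC Scr than in sham. The 7 macrophage markers, from cells that also express Abca1 and Apoe, summed to 14.8 to 18.4 CPM in sham, 20.1 to 37.8 CPM in KPC Scr and 13.1 to 43.7 CPM in miR-27a-KD. Of these 7, 5 had a higher fitted mean in KPC Scr than in sham. No marker of any of these lists was called in KPC Scr against sham. The 6 markers of mature adipocytes summed to 0.19 to 2.51, 5.33 to 14.7 and 2.21 to 12.6 CPM in the 3 groups, with Lep at 0 in all libraries. The 7 muscle fibre markers summed to 26.2 to 53.9, 58.1 to 203 and 40.7 to 51.5 CPM, and 7 of 7 had a higher fitted mean in KPC Scr than in sham. The 5 markers of epithelial tumour cells summed to 2.66 to 2.79, 1.07 to 15.9 and 3.59 to 5.02 CPM, with the highest value in KPC Scr 1. The part of these cells in the results was not tested.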

How the data were processed

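The values are unnormalized read counts per gene symbol, deposited by the authors as 1 table of 24419 rows and 8 libraries, of which 6786 rows were 0 throughout. Per the submitters' processing notes the build was mm10, and STAR, Bowtie, R 4.2.1, DESeq2 1.36.0 and bcl2fastq 2.20 were used in roles not stated there. No source used here names the counter, the annotation or the strand setting. Paired reads had 59 bases, and RNA integrity was 7 or above.

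Counts were fitted in R 4.3.3 with edgeR 4.0.16 (filterByExpr with minimum count 10 and total 15, TMM, robust quasi-likelihood, 3 group means over all 8 libraries, two-sided, Benjamini-Hochberg over 13646 genes, threshold 0.05). SE was taken as log2 change over the root of F. Role means use log2 CPM with prior count 2. The script was tested on simulated data. For KPC Scr against sham it recovered 10% of 2-fold and 58% of 4-fold changes, with 9 unchanged genes called. For miR-27a-KD against KPC Scr it recovered 26% and 68%, with 14 unchanged genes called. A gene not called may therefore still differ. The 32 genes and all lists were chosen with earlier results of these data known. All 32 are named, and described in full are those called, up to 4 per role with the smallest unadjusted p, and Srebf1, Srebf2, Insig1 and Abca1. Of other pathway genes, those called are named. Alternatives were RLE factors, prior count 0.5, DESeq2 1.42.0, no filter, 2 groups alone, replicate block, medians and leaving out each library. Gene positions are from GENCODE M21 (GRCm38, the same build as mm10), sequences from RefSeq. Without molecular identifiers, counting error covers reads, not molecules.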

Additional observations from a re-analysis of the deposited data

How the results depend on the processing

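With RLE factors in place of TMM, no count of called genes moved by over 1.5 times and no direction changed. For KPC Scr against sham, the 4 of 32 genes called became 8 without the filter on low counts, 2 with a replicate block, 0 when the 2 groups were fitted alone and 19 with DESeq2, and ranged from 0 to 25 when single libraries were left out. The 215 of all genes called became 16 with the block, 4 with the groups alone and 1957 with DESeq2, and ranged from 0 to 6908. For miR-27a-KD against KPC Scr, the 0 of 32 became 16 with DESeq2 and ranged from 0 to 22, and the 7 of all genes became 11 without the filter, 0 with the block, 0 alone and 2187 with DESeq2, and ranged from 0 to 7313. For miR-27a-KD against sham, the 1 of all genes became 2 without the filter, 0 with the block, 101 alone and 25 with DESeq2, and ranged from 0 to 32, while 0 of the 32 were called throughout. Among the fits that left out 1 library, each of these highest counts was that without KPC Scr 2, and the cause was not tested.

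Differences of role means moved as follows when single libraries were left out. For synthesis they ranged from -2.34 to -1.24 (KPC Scr minus sham) and from -1.08 to 0.0321 (miR-27a-KD minus sham). For SREBP control the ranges were -0.86 to -0.29 and -0.66 to -0.0784, and for efflux, LXR and storage 0.32 to 0.64 and -0.13 to 0.19. With the median over genes in place of the mean, uptake and transport stood at 0.60 (KPC Scr minus sham, mean 0.07) and -0.43 (miR-27a-KD minus KPC Scr, mean -0.08), and efflux at -0.60 (miR-27a-KD minus KPC Scr, mean -0.45).

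Some single genes changed direction. In miR-27a-KD against sham the log2 difference ranged, over single libraries left out, from -1.35 to 0.24 for Hmgcs1, -1.22 to 0.27 for Sqle, -1.55 to 0.10 for Insig1, -1.16 to 0.31 for Stard4, -0.10 to 0.43 for Soat1, -0.12 to 0.32 for Npc1 and -0.41 to 0.61 for Abca1. Abca1 was -0.0011 without the filter and -0.0128 with the replicate block, and Npc1 was -0.0046 with the block. Insig1 in miR-27a-KD against KPC Scr was -0.0163 with the block and ranged from -0.29 to 0.37. The labels do not say whether the replicate numbers pair the samples. Over all genes tested, deviations of same-numbered libraries from their group means correlated between -0.0643 and 0.172. With so few libraries per group this cannot exclude a pairing, and the block is given here only.

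Depth limits Idi1 and Abcg1 most, with as few as 5 and 41 reads in a library. The sham group has only 2 libraries, and the labels give no collection dates or batches.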
